A study of Homo sapiens with 3 samples.

Results

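The RB pocket proteins and the E2F transcription factors with their DP partners are described here as 10 genes chosen by name: RB1, RBL1, RBL2, E2F1, E2F3, E2F4, E2F5, E2F6, TFDP1 and TFDP2. Of these 10 genes 9 have a row among the 17595 genes of the count table, and RBL1 (p107) was not analysed here. The rule goes by gene names and not by a threshold on counts, but the names were chosen with earlier results of these data known. RNA 5′ ends were counted per gene in 3 libraries of untreated HEK293 cells grown in DMEM with fetal calf serum. There is 1 group only, so values are compared between genes and between libraries, not between conditions. Each library came from 1000 lysed cells with spiked control RNA, of which a share equal to 100 cells went into 18 cycles of PCR. HEK293 is an established line from human embryonic kidney that carries the E1 region of adenovirus 5. The libraries are called 20, 21 and 23 after the indices of the count columns, which give no replicate number. No label says whether they came from separate cultures, so the spread between them may be technical.

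The pocket proteins bind E2F and DP dimers and hold the promoters of cell cycle genes in a repressed state. Cyclin and CDK complexes phosphorylate the pocket proteins in G1, which frees E2F and lets S phase genes be transcribed. RB1 mostly binds the activator E2Fs, whereas RBL1 and RBL2 bind E2F4 and E2F5 and join the MuvB proteins in the DREAM complex. E2F6 has no pocket-binding region and acts with Polycomb proteins. In cells with adenoviral E1A, the viral protein occupies the pocket through an LxCxE motif and displaces E2F. E1A RNA was not analysed here.

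Several of these genes carry E2F-type words close to their own annotated start. The stretches below are shown because RNA 5′ ends were counted, although counts per gene do not give the position of an end. The RefSeq promoter table (GRCh38.p14) holds windows of 250 bases before to 50 bases after a start, with 13 windows for 9 of the 10 genes. Both strands were searched for the 8-letter words TTTCCCGC, TTTCGCGC, TTTGCCGC and TTTGGCGC, and for the 7-letter words TTTCGCG and TTTGGCG. TTTCGCGC contains TTTCGCG, and TTTGGCGC contains TTTGGCG, so the searches overlap. Capitals mark the words found on either strand.
RBL1, chr20:37096000-37096029, minus strand: gcagatTTTCGCGCgcTTTGGCGCaggtgg
E2F1, chr20:33686395-33686424, minus strand: tcTTTCGCGGCAAAaaggaTTTGGCGCgta
E2F2, chr1:23531262-23531291, minus strand: aTTTCGCGgcacgacgTTTGGCGCtaaaaa
E2F3, chr6:20401822-20401851, plus strand: gccgGCGGGAAAtccgagTTTCGCGggagg
TFDP1, chr13:113584622-113584651, plus strand: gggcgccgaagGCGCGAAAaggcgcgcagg
E2F4, chr16:67192116-67192145, plus strand: agcggaagcagtaacgctggctccggctgc
E2F6, chr2:11466171-11466200, minus strand: ggagcgctccggcagcggcgggcatgcgca

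RBL1 holds 2 of the 8-letter words, starting 26 and 16 bases before the start. E2F1 holds 2 of them, at 33 bases (on the other strand) and 20 bases before the start, and its 7-letter words begin at 37 and 20 bases. Across the 35116 windows of the table, 3.31% hold at least 1 of the 8-letter words and 0.145% hold 2 or more. E2F3 holds 1 of each form at its upstream start and none at its downstream start. TFDP1 holds 1 word farther out, at 120 bases. E2F2, an activator that is not among the 10 genes, has the same pair of 7-letter words as E2F1, at 57 and 42 bases, and 0.105% of windows hold 2 or more of that form. No word was found in the windows of RBL2, E2F4 and E2F6. For comparison, E2F4 and E2F6 are shown at the offset of the E2F1 pair, 39 to 10 bases before the start. Of the 3 TFDP2 windows 1 has a 7-letter word, 20 bases inside the transcript. The table's RB1 window lies inside the gene body and not at its annotated 5′ end, so it is left out here. These matches describe letters in a window and are not evidence of binding.

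**Figure D1:**
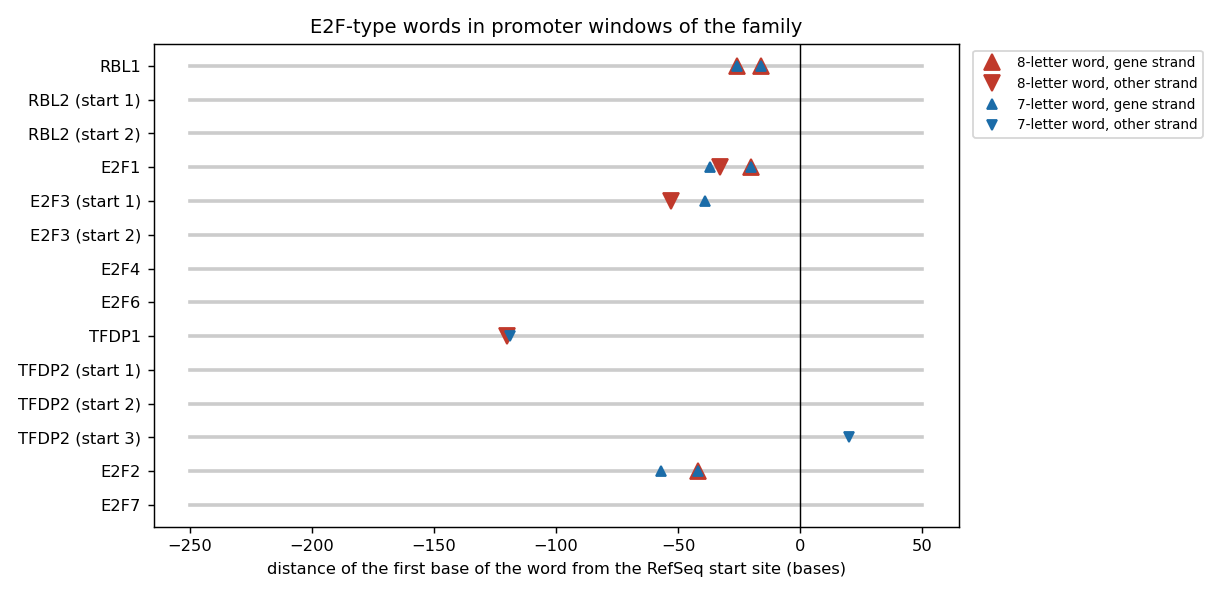
Positions of the 8-letter (red) and 7-letter (blue) words in the promoter windows of the family, with distance from the RefSeq start in bases on the horizontal axis and 1 row per annotated start. The words of RBL1, E2F1, E2F3 and E2F2 lie within 57 bases before a start, and the rows of E2F4, E2F6, RBL2 and E2F7 are empty.

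All 9 listed genes were detected in every library, with single counts from 16 to 210. Endogenous counts were 1330877 to 1545594 per library, and levels are given as counts per 1000000 endogenous counts (CPM), so that 1 count equals 0.647 to 0.751 CPM. The 9 genes together took 354 ± 29.9 CPM (SD, n = 3 libraries), or 0.0354% of the endogenous counts. Each of the 9 averaged at least 10 CPM, a level that 44.6% of all listed genes reach. Their median was 25.3 CPM, against 7.16 CPM for all listed genes. Marker lists were set beside the kidney label, which describes the cells and does not test the label. Of 9 kidney progenitor markers, each with a row, 5 averaged at least 10 CPM, led by CITED1 at 51.0 ± 5.22 CPM, but PAX2 and OSR1, named after their values were seen, had 1 count each. Of 10 markers of differentiated kidney epithelium, 1 reached 10 CPM. Of the 8 blood, 6 endothelial and 5 hepatocyte markers, 0 did.

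Of the pocket proteins, RB1 was higher than RBL2. RB1, the retinoblastoma protein gene (chromosome 13), had 27.8, 21.04 and 27.2 CPM in libraries 20, 21 and 23, from 41, 28 and 42 counts. RBL2, which encodes p130, the pocket protein of quiescent cells (chromosome 16), had 13.6, 12.02 and 13.6 CPM, from 20, 16 and 21 counts. RBL2 lay below RB1 in each of the 3 libraries, and the ranges did not overlap. The RBL2 over RB1 ratio was -0.93 on the log2 scale (95% interval -1.41 to -0.45), a level 0.525 times that of RB1. Intervals of such ratios come from a limma fit over all listed genes, in which each gene's variance over the libraries is moderated by the trend of all genes. They cover the spread between libraries and not capture differences between RNAs.

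Neither activator E2F was told apart from RB1, with 1.08-fold for E2F3 over RB1 (95% interval 0.819 to 1.42) and 1.13-fold for RB1 over E2F1 (0.848 to 1.505). E2F3 (chromosome 6) had 29.1, 27.8 and 24.6 CPM, from 43, 37 and 38 counts, and its upstream and downstream starts are not told apart by counts per gene. E2F1 (chromosome 20), whose protein also drives apoptosis genes, had 20.3, 22.5 and 23.9 CPM, from 30, 30 and 37 counts. E2F1 was the lower of the pair in each library, with log2 ratios of E2F1 over E2F3 of -0.51, -0.30 and -0.04. The moderated ratio of E2F1 over E2F3 was -0.28 (95% interval -0.69 to 0.12), so a difference was not told apart from the spread between libraries.

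Among the repressor E2Fs, E2F4 was 4.14-fold above E2F5 (95% interval 3.10 to 5.54). E2F4 (chromosome 16), the most abundant E2F of the 5, had 67.1, 54.9 and 58.2 CPM, from 99, 73 and 90 counts. E2F5 (chromosome 8), which pairs mainly with RBL2, had 13.6, 12.02 and 17.5 CPM, from 20, 16 and 27 counts. E2F6 (chromosome 2) had 19.0, 14.3 and 11.0 CPM, from 28, 19 and 17 counts. E2F4 lay above both in every library with no overlap, and E2F6 over E2F4 was -2.03 on the log2 scale (95% interval -2.45 to -1.61). E2F6 and E2F5 overlapped. Their log2 ratio was 0.48 in library 20, 0.24 in library 21 and -0.65 in library 23, with a moderated mean of 0.02 (95% interval -0.50 to 0.54). The sign of that mean turned without library 20 (-0.21) and without library 21 (-0.09).

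The DP partners, without which E2Fs bind DNA weakly, had the highest summed level of the roles, most of it from TFDP1. TFDP2 averaged 50.8 CPM, less than E2F4 at 60.1 CPM. TFDP1 (chromosome 13), which encodes DP1, a partner shared by the activator and repressor E2Fs, had 142, 110.5 and 126 CPM, from 210, 147 and 194 counts. TFDP2 (chromosome 3) had 52.9, 51.1 and 48.5 CPM, from 78, 68 and 75 counts. Every TFDP1 value was above every TFDP2 value, and TFDP1 exceeded TFDP2 by 2.46-fold (95% interval 2.06 to 2.93). At a mean of 126 ± 15.9 CPM, TFDP1 stood at rank 1391 of the 17595 listed genes. Its level was 2.09 times that of E2F4 (95% interval 1.76 to 2.47), the next gene in order.

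**Figure D2:**
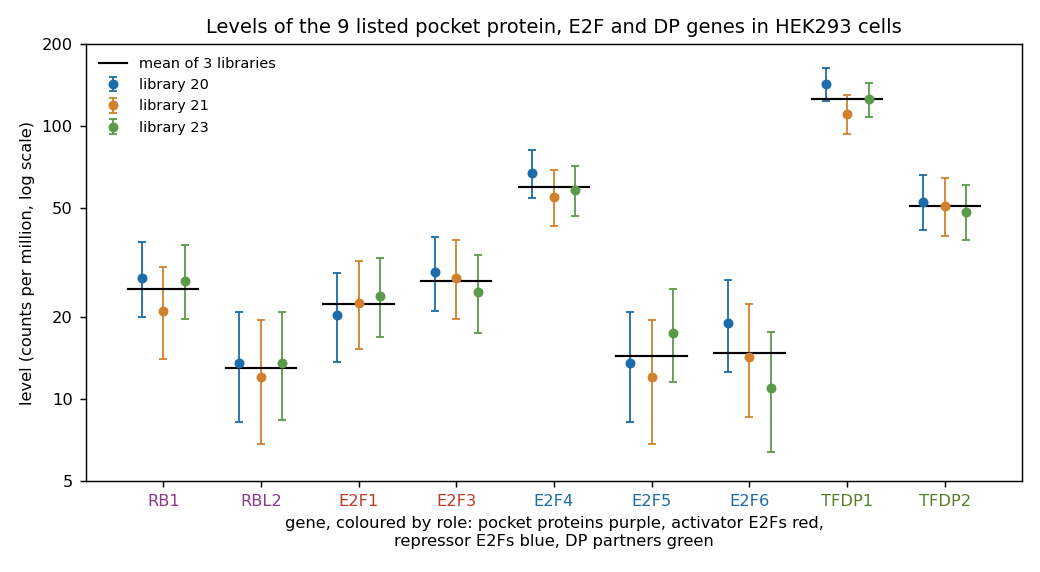
Level of each of the 9 listed genes (CPM, log scale) in libraries 20, 21 and 23, with exact 95% Poisson intervals of each count as bars and the mean of the 3 libraries as a black line. TFDP1 averages 126 CPM and stands above all others, E2F4 and TFDP2 follow at 60.1 and 50.8 CPM, and the intervals of RBL2, E2F5 and E2F6 overlap in each library.

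In order of mean level the genes were TFDP1, E2F4 (60.1 ± 6.32 CPM), TFDP2 (50.8 ± 2.18), E2F3 (27.2 ± 2.34), RB1 (25.3 ± 3.73), E2F1 (22.3 ± 1.82), E2F6 (14.7 ± 4.01), E2F5 (14.3 ± 2.81) and RBL2 (13.1 ± 0.89). Of the 8 pairs of neighbours in this order, 3 had an interval that excluded a ratio of 1. These steps were TFDP1 over E2F4, TFDP2 over E2F3 (1.86-fold, 95% interval 1.47 to 2.37) and E2F1 over E2F6 (1.53-fold, 95% interval 1.10 to 2.13). The last step was lost without library 21 (1.51-fold, 0.880 to 2.60) and without library 23 (1.29-fold, 0.891 to 1.88), and E2F1 over E2F5 was lost without library 21 (1.42-fold, 0.906 to 2.24). The other 5 neighbours did not differ beyond their spread: E2F4 and TFDP2 (1.18-fold, 0.965 to 1.44), E2F3 and RB1 (log2 ratio -0.04 without library 21), RB1 and E2F1, E2F6 and E2F5, and E2F5 and RBL2. E2F4 lay above TFDP2 in 3 of 3 libraries, with log2 ratios of 0.34, 0.10 and 0.26, although the interval of their mean spans 0. The order was set from the same values as the intervals, so the steps describe these libraries. The step between E2F1 and the 3 lowest genes is not a firm boundary, since 2 of the ratios across it no longer excluded 1 when a single library was left out. Of all 36 pairs of the 9 genes, 29 had an interval that excluded a ratio of 1 (80.6%). Over all pairs of genes with at least 10 pooled counts the share was 84.9%, so the share among the members was near this background.

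**Figure D3:**
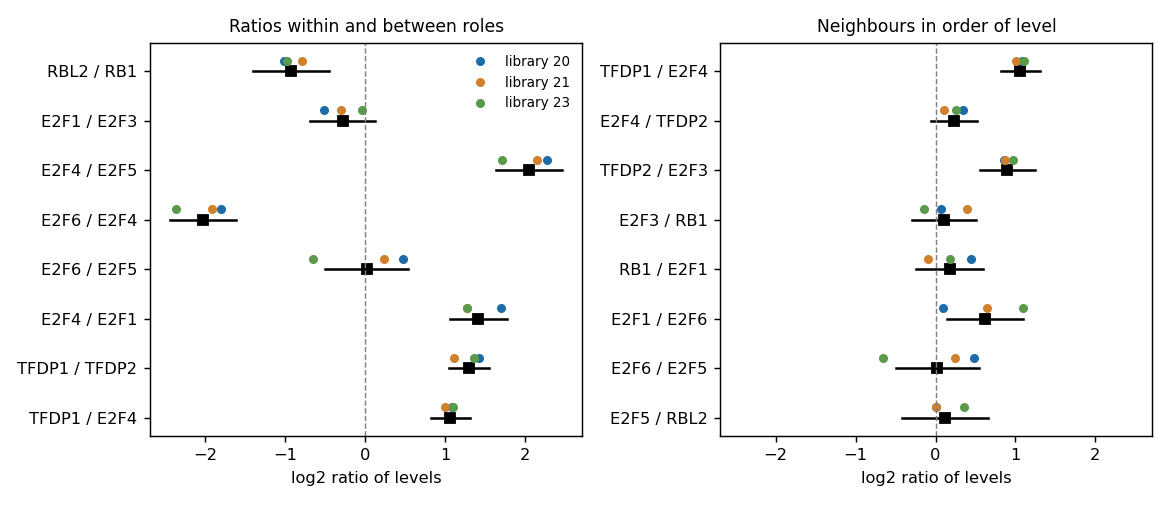
Log2 ratio of levels for fixed gene pairs (left) and for neighbours in the order of levels (right), with the moderated mean as a square, its 95% interval as a line and the libraries as coloured points above it. The interval of E2F6 over E2F5 spans 0 with library 23 on the other side, whereas TFDP1 over TFDP2 lies at 1.30 with all 3 libraries above 1.

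Summed by role, the order was DP partners, repressor E2Fs, activator E2Fs and pocket proteins. E2F1 and E2F3 together had 49.4 ± 0.91 CPM, against 89.2 ± 9.47 CPM for E2F4, E2F5 and E2F6. The activators lay below the repressors in 3 of 3 libraries, with a log2 ratio of -0.84 ± 0.16 (SD, n = 3), and E2F4 made up most of the repressor sum. With E2F2 added to the activators and E2F7 and E2F8 to the repressors, a check chosen after the values were seen, the ratio was -0.98 ± 0.13. The DP partners together had 177 ± 17.0 CPM, against 139 ± 9.26 CPM for the 5 E2F genes, a log2 ratio of 0.35 ± 0.047 that was positive in 3 of 3 libraries. RB1 and RBL2 together had 38.4 ± 4.62 CPM, and their sum over that of the 5 E2F genes was -1.85 ± 0.13 on the log2 scale. RBL1 is missing from this sum, so the pocket protein total is incomplete. The smallest 2-sided p of the exact sign-flip permutation test with 3 libraries is 0.25, which each of these 3 ratios had.

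These are counts of RNA 5′ ends and were not divided by transcript length. Because cDNA synthesis starts at the poly(A) tail, each gene was also set beside protein-coding genes whose principal transcript in GENCODE release 29 is within 20% of its own length. Over 12563 listed protein-coding genes, the median level was 26.6 CPM in the shortest of 4 equal classes (up to 2040 nucleotides) and 11.2 CPM in the longest (from 4930 nucleotides). TFDP1 (2648 nucleotides) stood 8.66-fold above the median of its length class, E2F4 (2096 nucleotides) 3.50-fold and TFDP2 (2360 nucleotides) 3.28-fold. The longer transcripts E2F3 (4749 nucleotides) and RB1 (4793 nucleotides) stood 2.25-fold and 2.11-fold above theirs. E2F1 was 1.44-fold, E2F6 1.11-fold and RBL2 1.11-fold above the class median, and E2F5 was at 0.706 times it. E2F5, the shortest of the 9 at 1728 nucleotides, was the only one below the median of its class. By this measure per length TFDP1, E2F4 and TFDP2 kept the first 3 places, and RBL2 stood above E2F5.

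**Figure D4:**
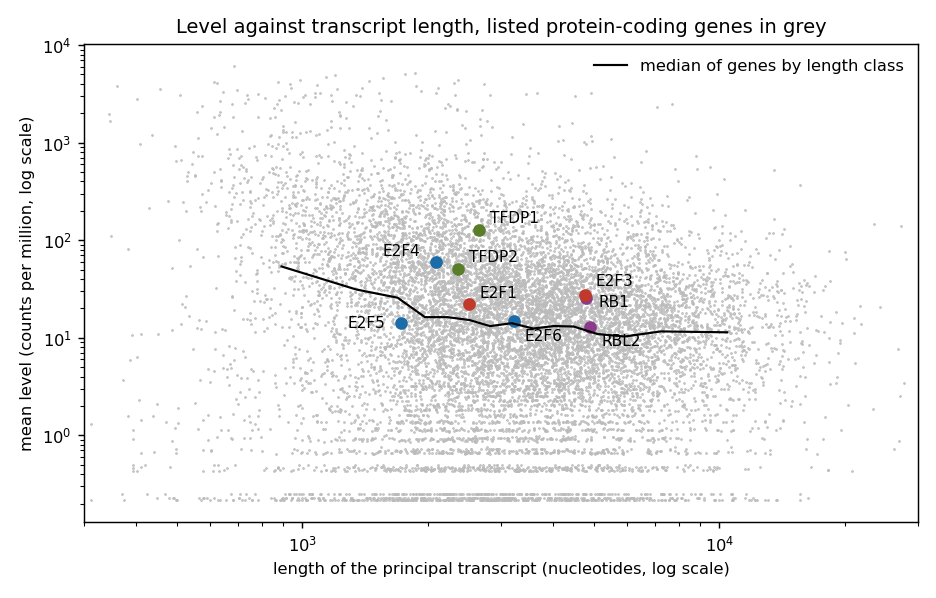
Mean level (CPM, log scale) against the length of the principal transcript (nucleotides, log scale) for listed protein-coding genes in grey, with the 9 genes in the colour of their role and the median by length as a line. TFDP1 is farthest above the line at 126 CPM and E2F5 lies below it at 14.3 CPM.

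The spread of the 9 genes over the libraries was about what counting alone gives. The coefficient of variation that counts of this size carry by themselves ran from 7.44% for TFDP1 to 23.1% for RBL2. The observed coefficient exceeded it for 2 genes, TFDP1 (12.6%) and E2F6 (27.2%). The median ratio of observed to counting variation was 0.882 for the 9 genes, against 0.913 for the 5653 genes in the same range of levels. In a 2-sided exact binomial test of each gene in each library pair, with Benjamini-Hochberg adjustment across the whole table, 64 of 11424 genes differed in some pair (0.56%). None of the 9 genes was among them (0 of 9). The count of 64 fell to 8 without library 23 and to 42 without library 20, and was 114 with DESeq2 size factors, with 0 of the 9 genes called each time. With 1 library left out only 1 pair of libraries is tested, so those 2 counts are not like for like with 64. A chi-square test over the 3 libraries also called 0 of the 9, against 83 of the 11424 genes (0.727%). At an unadjusted p under 0.05 the exact test found 1 of the 9, against 1813 of 11424 genes (15.9%), so this share is near the background. That gene, TFDP1, was higher in library 20 than in library 21 by 0.37 on the log2 scale (unadjusted exact p = 0.0196, adjusted exact p = 0.57). E2F6 had the widest fold range, 1.72 between its highest and lowest library. Its exact Poisson intervals, 12.6 to 27.4 CPM in library 20 and 6.41 to 17.6 CPM in library 23, overlapped. For this pair of libraries the exact binomial test gave an unadjusted p of 0.075 and an adjusted p of 0.78.

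On the scale of the spiked RNA, given by the labels as 20000 molecules per cell, the levels were also expressed as molecules per cell. TFDP1 came to 66.1 ± 9.73 molecules per cell (SD, n = 3), E2F4 to 31.5 ± 3.75 and TFDP2 to 26.6 ± 0.97. E2F3, RB1 and E2F1 came to 14.2 ± 0.81, 13.3 ± 2.45 and 11.7 ± 1.39 molecules, and E2F6, E2F5 and RBL2 to 7.68 ± 1.94, 7.56 ± 1.88 and 6.85 ± 0.77. The scale assumes that spikes and cell RNA were captured alike. The 3 most counted spikes held 45.6% of the spike counts, and without them, with the nominal spike amount kept, every value is 1.84-fold higher, with TFDP1 at 121.5 ± 18.0 and RBL2 at 12.6 ± 1.43 molecules per cell.

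How reads of overlapping genes and copies were assigned is not stated in the labels. E2F5 overlaps C8orf59 on the opposite strand in GENCODE release 29, and C8orf59 had 716, 617 and 751 counts, so without strand the E2F5 counts could hold reads of that gene. RBL2 overlaps AKTIP in the same way, and AKTIP had 21, 24 and 28 counts. Where these overlaps lie relative to the counted 5′ ends is not given here. RB1 holds LPAR6 on the opposite strand, which had 0, 1 and 0 counts, and overlaps RCBTB2, which had 6, 9 and 8. Its divergent transcript LINC00441 had 0, 1 and 0 counts. No processed pseudogene named for E2F3, E2F4 or E2F6 has a row, and reads shared with such copies may have been assigned to the parent gene or dropped.

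Of the other E2F genes, E2F7 had a mean above those of E2F6, E2F5 and RBL2, and E2F8 and E2F2 had means below that of RBL2, with no test of these differences. E2F7 and E2F8, repressors that bind DNA without a DP partner, averaged 17.5 ± 5.49 and 12.3 ± 4.70 CPM. E2F2 averaged 10.7 ± 3.67 CPM, with 12, 12 and 23 counts, and TFDP3 was not analysed here. Of the MuvB core and its late partner B-MYB, 6 of 6 genes were listed and 4 reached 10 CPM. Of all listed genes 44.6% reach this level, and with 6 genes the count describes the list only. RBBP4, a histone chaperone shared with many complexes, had 406 ± 18.6 CPM, MYBL2 (B-MYB) 191 ± 21.7 CPM and LIN52 30.9 ± 10.3 CPM. LIN37 and LIN54, named after their values were seen, had 8.25 ± 1.07 and 8.09 ± 1.86 CPM.

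Genes of the kinases that phosphorylate pocket proteins were all detected, and CDK4 was far above RB1. All 9 genes of the cyclin and CDK list reached 10 CPM, with a list median of 52.9 ± 2.97 CPM. CDK4, the partner of D-type cyclins, had 407 ± 3.41 CPM and stood 16.0-fold above RB1 (95% interval 13.0 to 19.7). CCNA2 had 113 ± 2.92 CPM and CCND3 73.2 ± 4.50 CPM. Of 7 CDK inhibitor genes 4 reached 10 CPM, near the share of 44.6% among all listed genes. CDKN2A had 309 ± 5.65 CPM, and counts per gene do not separate its products p16, an inhibitor of CDK4 and CDK6, and ARF, which has another first exon. CDKN2C (p18) had 80.9 ± 3.86 CPM and CDKN1A (p21) 20.8 ± 3.25 CPM. CDKN1C, CDKN2D and CDKN2B, named after their values were seen, lay between 4.63 and 6.87 CPM. In the list of phosphatase and degradation genes 6 of 6 reached 10 CPM, led by PPP1CA, a catalytic subunit of the phosphatase that acts on RB1, at 286 ± 2.32 CPM, PPP1CC at 234 ± 16.8 CPM and PPP1CB at 163 ± 19.8 CPM.

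Both lists of target genes, of E2F and of MuvB, had medians above the levels of 8 of the 9 listed factors, TFDP1 being the exception. All 35 genes of the G1 and S phase target list reached 10 CPM, with a list median of 105 ± 0.58 CPM, and the lowest was at 15.9 CPM. The highest was MCM7, part of the helicase that opens DNA at origins, at 341 ± 4.41 CPM, followed by PCNA at 338 ± 19.5 CPM and GINS2 at 297 ± 27.8 CPM. Of these 35 genes, 32 had a higher mean than E2F1 and 24 a higher mean than E2F1 and E2F3 together. All 28 genes of the G2 and M phase list reached 10 CPM, with a list median of 85.1 ± 6.72 CPM, led by CKS2 at 505 ± 5.93 CPM, UBE2C at 485 ± 30.1 CPM and CCNB1 at 365 ± 0.71 CPM. A mean above that of E2F4 was found for 23 of the 35 and 17 of the 28 genes, against 14.7% of all listed genes. The lists hold genes of dividing cells chosen with earlier results of these data known, so these counts describe them only.

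Most partners of the pocket proteins and of E2F6 were above 10 CPM. Of 12 chromatin partners of pocket proteins 10 reached 10 CPM, led by RBBP4, RBBP7 at 311 ± 8.98 CPM and HDAC2, a histone deacetylase, at 296 ± 20.0 CPM. All 9 partners of E2F6 in its Polycomb complex reached 10 CPM. CBX3, an HP1 protein, had 652 ± 16.1 CPM, RNF2 54.1 ± 5.92 CPM and MAX 48.1 ± 4.34 CPM. Of 8 further host proteins that E1A binds, 7 reached 10 CPM, led by the corepressors CTBP2 at 55.1 ± 6.00 CPM and CTBP1 at 47.7 ± 1.82 CPM and by the acetyltransferase KAT2A at 36.6 ± 7.04 CPM. KAT2B, named after its value was seen, had 2.84 ± 1.61 CPM. Outside the 10 genes these lists hold 121 genes, of which 120 were listed, 112 reached 10 CPM and 0 differed between libraries by the exact binomial test. Of all listed genes 44.6% reached 10 CPM. Of all tested genes 0.56% differed between libraries, so the 0 is near this background.

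**Figure D5:**
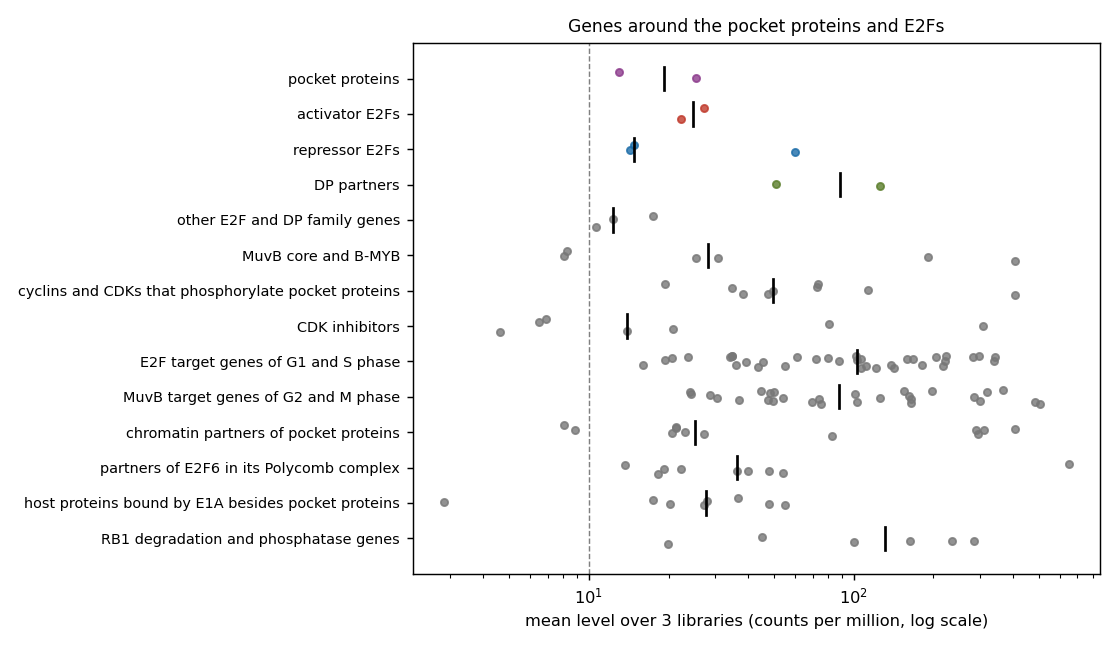
Mean level over 3 libraries (CPM, log scale) of each listed gene in the 4 groups of members (coloured) and in the lists around them (grey), with the median of the listed genes as a black bar and 10 CPM as a dashed line. The target gene lists have bars near 100 CPM, whereas pocket proteins and activator E2Fs lie between 13.1 and 27.2 CPM.

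Among 120 listed genes of these lists, the gene closest to each member over the 3 libraries was taken by the root mean square difference in log2(CPM + 0.5). The closest match was E2F1 with YAF2 (difference 0.035), followed by TFDP2 with KIF2C (0.054). RB1 was closest to CENPE, E2F3 to CENPA, E2F4 to EZH2, TFDP1 to AURKA and E2F6 to ORC1, while RBL2 and E2F5 were both closest to CDKN1B. With 3 libraries of 1 group this likeness is one of level.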

How the data were processed

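The deposited table gives whole-number counts per gene and library, which the authors did not normalize. Per the submitters' processing notes, cutadapt 1.2.1, STAR 2.4.0a and the build hg19 (GRCh37) were used. The counter, annotation, use of strand and collapsing of molecular identifiers are not stated in the labels, so whether reads or molecules were counted is not known.

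Total counts were 1384172 to 1601555 per library, 3.49% to 3.85% of them from 80 spikes. CPM used endogenous totals. The limma-trend fit, with an intercept only, ran on log2 CPM of all 17595 genes with a pseudocount of 0.5. The exact binomial test used genes with at least 10 pooled counts. It compares libraries, and its p-values, like Poisson intervals, cover counting error only. edgeR gave TMM factors and dispersions, and DESeq2 size factors. Scripts were tested on simulated counts. Gene names follow the table. Chromosomes, lengths and overlaps came from GENCODE release 29 (GRCh38) and promoter windows from RefSeq (GRCh38.p14), not the authors' build. RBL1 and TFDP3 had no row and enter list counts as not listed.

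Named genes are the members, the 3 highest of each pathway list, all other E2F and DP genes, the genes of fixed ratios and the gene most alike in level. Genes that overlap a member are named from the annotation. The members and lists were chosen with earlier results of these data known. Alternatives covered scaling, pseudocount, filters, tests and leaving out each library. R 4.3.3, limma 3.58.1, edgeR 4.0.16, DESeq2 1.42.0 and Python 3.11.15 were used.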

Additional observations from a re-analysis of the deposited data

How the results depend on the processing

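The 8 fixed ratios between members and CDK4 over RB1 kept their direction and their side of the interval under a pseudocount of 2, the expression filter, edgeR's negative binomial model and each library left out, with the exception of E2F6 over E2F5. That log2 ratio ran from -0.21 to 0.36 when 1 library was left out, and its interval spanned 0 each time. Levels of the 9 genes moved by less than 1 SD in all 54 values under TMM, DESeq2 and spike scaling and with 1 library left out. Leaving out 1 of 3 libraries cannot move a mean by 1 SD of the same libraries. Scaling the same 3 libraries relative to each other also largely keeps their mean. The 54 values are therefore a weak check of the levels. Genes called between libraries numbered 114 with DESeq2 size factors and 8 (without library 23) to 59 with 1 library left out, against 64, and 0 of the 9 genes was called under any setting. With 1 library left out only 1 pair of libraries is tested, so those counts are not like for like with 64. Beyond that, the cause of these changes was not tested. The common coefficient of biological variation of edgeR was 0.054, and the square root of the median DESeq2 dispersion, another summary, was 0.18. Without the 3 most counted spikes, endogenous RNA came to 962550 molecules per cell, against 523506, because the nominal spike amount was kept while counts were dropped. Of the 36 member pairs, 27 to 29 had an interval that excluded 0 with 1 library left out, against 29. No comparison of groups was possible because all samples belong to 1 group. Ratios per library and the sign-flip test pair the genes by library, whereas the 95% intervals of the moderated ratios do not. Among E2F6, E2F5 and RBL2 the 95% intervals of the level ratios ran from 0.707 to 1.59, the range of ratios that these intervals do not exclude. No detection limit was computed.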

Other observations

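The words searched in the family's promoters were also counted in the promoter windows of the target lists. Of 29 genes of the G1 and S phase list with a window, 17 held at least 1 of the 8-letter words and 15 at least 1 of the 7-letter words. Of 23 genes of the G2 and M phase list with a window, 3 and 3 did. Across all 27305 gene symbols of the table the shares were 3.99% and 3.85%. The first list was chosen as target genes of E2F, so this describes the list and was not tested.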
